A study of Mus musculus with 9 samples.

Results

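Opossum (metatherian) CRX was compared with human (eutherian) CRX in mouse embryonic fibroblasts (MEFs), connective tissue cells grown from mouse embryos, by RNA-seq. The comparison used the 3 libraries of metatherian CRX and the 3 of eutherian CRX, 6 of the 9 libraries of the series. The members described are the genes that differed in the same direction in all 3 pairs of libraries with the same replicate number. They were 1848 genes higher and 1348 lower with metatherian CRX, of 9930 genes tested. All 6 cultures were commercial C57Bl/6 MEFs at passage 2, electroporated with a plasmid carrying a V5-tagged CRX gene and puromycin resistance. They were selected in puromycin for 5 days, with 48 h of recovery that the sample labels place after the selection and the methods before it. The control libraries carried the same kind of plasmid without a homeobox gene. MEFs are not a cell in which CRX is normally active, and nothing in the labels says that the 3 libraries of a condition came from separate animals. The p-values given measure only the spread between these libraries, which may be technical.

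CRX is a homeodomain transcription factor of the paired class. In the retina it binds the DNA motif TAATCC and switches on the genes of rod and cone photoreceptors. The comparison asks which mouse genes respond differently to the orthologues of a marsupial and a placental mammal.

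The 6 libraries held 62615692 to 83238032 counts on genes. Replicate libraries were not equally close to each other. Eutherian CRX replicates 1 and 2 were the most alike, with an SD of 0.15 for the log2 difference across genes, whereas replicate 3 differed from them with an SD of 0.84 and 0.87. Metatherian CRX replicate 3 also stood apart from replicates 1 and 2, by an SD of 0.54 and 0.56 against 0.25 between those. The first principal component, with 66.1% of the variance, placed eutherian CRX replicate 3 at 46.7 and metatherian CRX replicate 3 at 30.1, and the other 4 libraries between -37.7 and 3.60. Between libraries of the same number the SDs were 0.42, 0.56 and 0.53, so that the replicate 3 libraries differed from their own condition by as much as the conditions did within a pair. Differences in pairs 1 and 2 correlated across genes (r = 0.84, 9930 genes), those in pairs 1 and 3 hardly (r = 0.024) and those in pairs 2 and 3 inversely (r = -0.34). Pairs 1 and 2 hold the 2 most similar eutherian libraries.

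**Figure D1:**
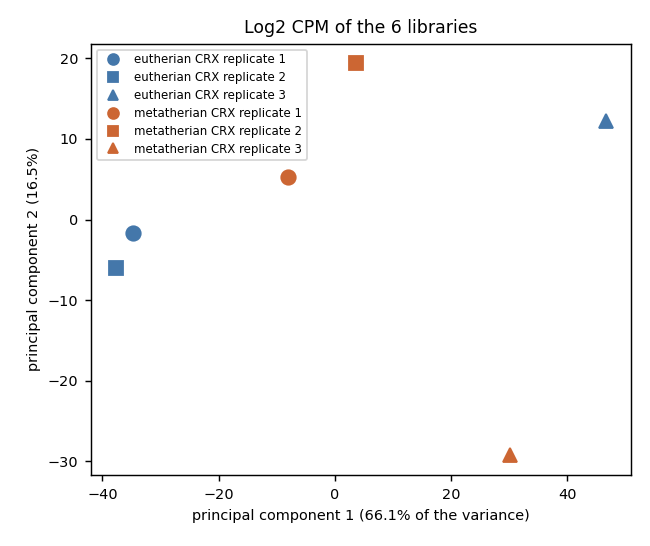
First and second principal component of log2 CPM for the 6 libraries. Colour marks the condition and shape the replicate number. Both libraries of replicate 3 lie to the right, at 46.7 and 30.1, and eutherian CRX replicates 1 and 2 lie close together at -34.7 and -37.7.

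No gene was called by edgeR's quasi-likelihood test with the replicate number as a block at an adjusted p under 0.05 (0% of 9930 genes). The smallest adjusted p was 0.525 and was shared by 444 genes. Taking unadjusted p-values below 0.05, metatherian CRX had 616 genes at a higher (6.20%) and 290 at a lower level (2.92%), and 905 of these 906 kept 1 direction in all 3 pairs. The block compares the libraries inside the same pairs, so this agreement largely follows from the test and is no separate evidence. All genes in 1 direction in every pair made up 18.6% (higher) and 13.6% (lower) of those tested. In 617 genes (6.21%) every metatherian library lay above every eutherian library, and in 525 (5.29%) every one lay below. With so few libraries, genes that do not differ also keep 1 direction or separate without overlap, and how many was not estimated. DESeq2 on the same genes and with the same block called 138 higher (1.39%) and 38 lower (0.383%), and limma voom called 0 with 611 and 307 at an unadjusted p under 0.05. The split of directions depended on the scaling. With upper-quartile factors in place of TMM, 1445 genes were higher and 1695 lower in every pair, 477 and 372 at the unadjusted threshold, and 438 and 749 without overlap. The number of calls depended on replicate 3, and among single libraries on eutherian CRX replicate 3. Without both libraries of replicate 3 edgeR called 1345 genes higher (13.5%) and 997 lower (10.0%), without both of replicate 1 or of replicate 2 it called 0, without eutherian CRX replicate 3 alone (no block) 251 and 118, and without any other single library, metatherian CRX replicate 3 included, 0.

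*Crx*, on chromosome 7 (GRCm38, 15865947-15879955, minus strand), is the mouse orthologue of the human and opossum genes that the plasmids carried. Its counts were 627, 995 and 313 in the eutherian CRX libraries and 4, 0 and 0 in the metatherian CRX libraries. Set against a floor of 3 counts per library, this was at least a 196.8-fold higher level in the eutherian CRX libraries. The counts are those on the mouse gene. How well reads of the human and of the opossum sequence align to it was not measured. These counts therefore give no comparison of the levels of the CRX transcripts. The place of *Crx* among the lower genes rests on these reads, and whether any of them came from the mouse gene itself was not tested. *Crx* was listed at 0 in all 3 control libraries. Of 24 photoreceptor genes, targets and partners of CRX in the eye, only *Crx* and *Rom1*, a disc protein of rods and cones, were tested, and *Rom1* had no single direction (log2 difference 0.084 ± 0.26, SE). Members below the filter had few counts and went both ways. *Otx2* had 0, 0 and 1 counts with eutherian CRX and 11, 15 and 17 with metatherian CRX. *Gnat1* had 55, 47 and 18 against 9, 18 and 14 counts.

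The genes with the largest difference in their weakest pair led each direction. They were ordered by these values, which are a description, and the edgeR adjusted p of each of the 24 was 0.525. Of the 12 higher genes 7 passed the filter on FPKM (counts per length and library size, above 2 in a condition) through the metatherian libraries only, and of the 12 lower genes 2 through the eutherian libraries only, so that these had to differ. The first was *Vip*, the precursor of a neuropeptide (chromosome 10, 5639193-5647617). *Vip* was at 1.73, 1.38 and 1.57 CPM (counts scaled to the library size) with eutherian CRX and at 5.85, 5.47 and 5.79 CPM with metatherian CRX. The libraries did not overlap, and the fitted ratio was 3.67-fold (log2 1.87 ± 0.18, SE). *Pde8b*, a phosphodiesterase that breaks down cAMP (chromosome 13, 95024105-95250397), was at 8.97, 10.9 and 15.6 CPM with eutherian and 28.8, 33.4 and 39.5 CPM with metatherian CRX. The lowest metatherian library was well above the highest eutherian library.

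*Itga4*, the alpha-4 chain of integrins that bind fibronectin and VCAM1 (chromosome 2, 79255426-79333114), rested at 7.08, 6.83 and 11.5 CPM with eutherian CRX and at 16.9, 17.2 and 30.0 CPM with metatherian CRX. Its differences were nearly equal in the 3 pairs, at log2 1.25, 1.33 and 1.39. *Moxd1*, a monooxygenase related to dopamine beta-hydroxylase, was at 15.8, 13.8 and 11.1 CPM and at 47.8, 39.7 and 25.3 CPM. *Tnfsf18*, the ligand of the costimulatory receptor GITR, was near 1 CPM in every eutherian library (0.923, 0.809 and 1.06) and at 12.03, 7.22 and 2.83 CPM with metatherian CRX. *Cxcr6*, the receptor of the chemokine CXCL16, was at 2.26, 2.20 and 2.25 CPM against 7.96, 4.93 and 5.78 CPM. For all 4 of these genes the libraries did not overlap.

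*Tac1*, which encodes substance P, was at 1.71, 1.78 and 0.537 CPM with eutherian CRX and 4.40, 3.75 and 2.13 CPM with metatherian CRX. *Slc5a7*, the choline transporter, was at 37.5, 42.2 and 12.9 CPM against 104.5, 87.5 and 29.4 CPM. In *Slc5a7* the fold was similar in every pair while both libraries of replicate 3 were low, so the conditions overlapped. *Cytl1*, a secreted cytokine-like protein, was at 0.784, 0.779 and 0.0268 CPM against 4.14, 3.27 and 0.0927 CPM. Its replicate 3 libraries held 2 and 6 counts, so that its pair 3 was near the floor of 3 counts. *Dynap* was the least even, at 0.531, 0.195 and 9.94 CPM with eutherian CRX and 8.49, 9.77 and 23.1 CPM with metatherian CRX. The interferon target *Ifit1* and the proliferation marker *Mki67* completed the 12 and are described with their groups. At the edge of this ranking, *Mki67* had a weakest-pair difference of log2 1.04 and *Hmmr*, the next gene, 1.02. In all 3 pairs 13 genes were higher by at least 2-fold, and 2 were lower (*Crx* and *Msx1*).

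**Figure D2:**
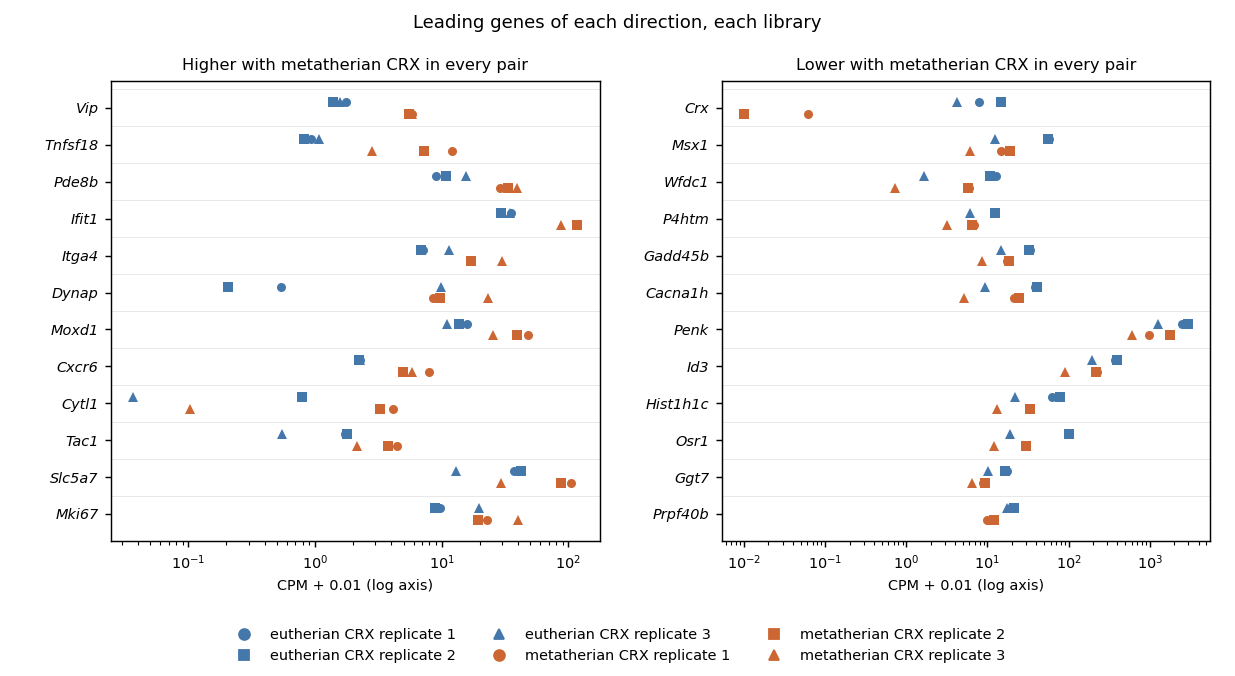
CPM plus 0.01 on a log axis for the 12 leading genes in each direction, with every library shown. Colour marks the condition and shape the replicate number. Vip lies between 1.38 and 1.73 CPM with eutherian CRX and between 5.47 and 5.85 CPM with metatherian CRX, whereas in Msx1 the replicate 3 libraries (triangles) are low in both conditions.

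Among the lower genes, *Msx1* followed *Crx*. It encodes a homeodomain protein of limb and craniofacial mesenchyme that BMP signals induce (chromosome 5, 37820491-37824585). *Msx1* was at 57.6, 55.1 and 12.4 CPM with eutherian CRX and at 14.8, 19.04 and 6.15 CPM with metatherian CRX. It was lower in every pair, by log2 differences of -1.96, -1.53 and -1.01, but the eutherian replicate 3 library was below 2 metatherian libraries. *Penk*, the precursor of enkephalins (chromosome 4, 4133530-4138965), was among the most abundant of these genes. It was at 2536, 2976 and 1274 CPM against 987.5, 1782 and 598.1 CPM, and the fitted ratio was 0.478. *Osr1*, a zinc finger factor of mesenchymal progenitors, was at 97.2, 101.9 and 19.2 CPM against 28.9, 30.0 and 11.99 CPM. In *Penk* and *Osr1* the conditions overlapped through eutherian replicate 3.

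*Cacna1h*, a T-type calcium channel, was at 39.0, 40.9 and 9.22 CPM with eutherian CRX and 21.2, 24.2 and 5.14 CPM with metatherian CRX. *Gadd45b*, a stress-response gene, was at 33.8, 32.8 and 14.7 CPM against 17.6, 18.3 and 8.68 CPM. *Hist1h1c*, a linker histone, was at 62.7, 77.4 and 21.7 CPM against 33.5, 33.9 and 13.1 CPM. All 3 genes were low in replicate 3 of both conditions and lower with metatherian CRX inside each pair. *Wfdc1*, a secreted protein with a WAP domain, *P4htm*, a transmembrane prolyl hydroxylase, and *Id3* had the same layout. *Ggt7*, of the gamma-glutamyltransferase family, and *Prpf40b*, a splicing factor, were the only members besides *Crx* whose libraries did not overlap. *Prpf40b* was at 19.2, 21.4 and 17.3 CPM with eutherian CRX and at 9.75, 11.95 and 10.9 CPM with metatherian CRX.

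Genes of mitosis were higher with metatherian CRX. The list held 30 genes of the spindle, the kinetochore and the mitotic kinases, 16 of which passed the filter on low values, 7 of them through the metatherian libraries only. Of these, 15 were higher in all 3 pairs and 0 lower, or 93.8% against the 18.6% of all tested genes, with a median log2 difference of 0.87 (1.83-fold), against -0.0041 over all tested genes. Only 3 of the 16 were higher without overlap of the libraries (6.21% of all tested genes). The medians of the pairs were 1.03, 0.70 and 0.75. With no block and 1 library left out the median was lowest, 0.52, without metatherian replicate 3 and highest, 1.21, without eutherian replicate 3. edgeR called 0 of the 16, with 14 higher at an unadjusted p under 0.05 (6.20% of all tested genes), and DESeq2 called 7 (1.39%). Without both libraries of replicate 3 edgeR called 15 higher, against 13.5% of all tested genes, and without both of replicate 1 or of replicate 2 it called 0. The 14 members at the unadjusted threshold became 7 with no block, 5 without both libraries of replicate 1, and between 1 (without eutherian replicate 1) and 15 (without eutherian replicate 3) with 1 library left out and no block. With the filter on FPKM left out, all 30 were tested and all 30 fitted values were above 0, with a median of 0.87.

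*Mki67*, a protein of the surface of mitotic chromosomes (chromosome 7, 135689782-135716408), was at 9.70, 8.78 and 19.7 CPM with eutherian CRX and at 22.8, 19.2 and 40.4 CPM with metatherian CRX. *Top2a*, which untangles DNA, was at 18.6, 17.3 and 27.9 CPM against 38.2, 26.3 and 52.6 CPM. *Prc1*, which bundles microtubules in the spindle midzone, was at 7.50, 8.09 and 12.5 CPM against 16.5, 14.0 and 24.2 CPM. In *Mki67* and *Top2a* the conditions overlapped because replicate 3 was higher in both, and in *Prc1* they did not. *Anln* and *Kif23*, which act in cytokinesis, had log2 differences of 1.04 ± 0.15 and 1.12 ± 0.20 (SE). *Cdk1*, the kinase that starts mitosis, was the exception, since it was not higher in pair 2, with 18.6, 19.3 and 17.2 CPM against 24.7, 18.2 and 28.6 CPM. In the control libraries *Mki67* was at 37.3, 47.3 and 65.5 CPM, in a scaling of all 9 libraries in which metatherian CRX had 22.4, 18.9 and 39.8 CPM.

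Genes of DNA replication showed no such direction. Of 20 tested members of 32, 3 were higher (15% against 18.6% of all tested genes) and 4 lower (20% against 13.6%) in all pairs, with a median of -0.017. *Ccne1*, which starts S phase, was at 22.1, 21.1 and 17.9 CPM against 30.7, 24.7 and 24.1 CPM, while *Pcna*, the sliding clamp, was at 20.6, 21.9 and 20.2 CPM against 17.5, 19.98 and 16.3 CPM. Neither gene overlapped between conditions. Among 15 tested cyclins and inhibitors of G1, 2 were higher (13.3%) and 1 lower (6.67%), both shares below those of all tested genes. *Rb1*, the retinoblastoma protein, was at 45.2, 42.7 and 51.9 CPM against 50.7, 49.1 and 67.5 CPM, and *Cdk4* at 269.8, 271.5 and 329.7 CPM against 244.9, 239.1 and 276.7 CPM.

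The promoters of the mitotic genes are shown because these genes differed in the same direction. The sequences come from RefSeq for GRCm38.p6, and windows of 300 bases (250 before to 50 after the annotated start) were found for 7999 of the 9930 tested genes, 357 of them by an older symbol. The core of the cell cycle homology region, TTTGAA on either strand, is an element known from genes that peak in mitosis. It was in a window of 12 of 13 mitotic genes with a window and of 1068 of all 7999 genes (13.4%). The motif was chosen after the expression values had been seen, and a match is a description. The 3 members with the largest weakest-pair difference among those that hold it are given from 150 bases before to 20 after the start, with the matches in capitals.
Mki67: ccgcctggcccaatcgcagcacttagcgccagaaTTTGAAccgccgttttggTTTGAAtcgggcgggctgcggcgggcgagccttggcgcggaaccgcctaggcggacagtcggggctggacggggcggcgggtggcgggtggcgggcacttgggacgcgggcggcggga
Prc1: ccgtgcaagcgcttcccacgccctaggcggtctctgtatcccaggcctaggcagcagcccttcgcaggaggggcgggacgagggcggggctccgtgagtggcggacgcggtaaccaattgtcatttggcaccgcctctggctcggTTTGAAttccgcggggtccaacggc
Kif23: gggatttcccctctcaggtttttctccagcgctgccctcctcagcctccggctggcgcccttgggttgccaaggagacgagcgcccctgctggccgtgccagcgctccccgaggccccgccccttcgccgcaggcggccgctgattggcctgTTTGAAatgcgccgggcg
*Mki67* (chr7:135716360-135716529, minus strand) has 2 matches, the first at -116 from the start. *Prc1* (chr7:80294301-80294470, plus strand) has 1 at -5, and *Kif23* (chr9:61946780-61946949, minus strand) 1 at 2.

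Genes of the interferon response and antigen presentation, taken as 1 list, held members in both directions. Type I interferons act through factors such as STAT2 and IRF9, which switch on antiviral genes, whereas MHC class I genes present peptides on the cell surface. Of 33 genes in the list 27 were tested, 4 of which passed the filter through the metatherian libraries only and 1 through the eutherian libraries only. Of the 27, 15 were higher (55.6%) and 6 lower (22.2%) in all 3 pairs, against 18.6% and 13.6% of all tested genes. Without overlap of the libraries 5 were higher and 1 lower (6.21% and 5.29% of all tested genes). The median log2 difference was 0.75, with 0.88, 0.76 and 0.38 in pairs 1, 2 and 3, and it was 0.48 without metatherian replicate 2 (no block). edgeR called 0 of the 27, while 14 higher and 3 lower members had unadjusted p-values below 0.05 (6.20% and 2.92% of all tested genes), or 7 and 1 with no block, and DESeq2 called 12 higher and 0 lower (1.39% and 0.383%). Without both libraries of replicate 3, edgeR called 20 higher and 2 lower, against 13.5% and 10.0% of all tested genes, and without both of replicate 1 or of replicate 2 it called 0. Members of the *Ifit*, *Gbp*, *Irgm* and *H2* families have close copies in the genome, between which reads may have been divided in the counting.

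*Ifit1*, which binds foreign RNA (chromosome 19, 34640889-34650009), had the largest weakest-pair difference of the list. It was at 35.1, 29.5 and 34.9 CPM with eutherian CRX and at 118.1, 116.3 and 88.2 CPM with metatherian CRX, a fitted ratio of 3.23-fold (log2 1.69 ± 0.16, SE). *Isg15*, *Oasl2* and *Usp18* differed more in pairs 1 and 2 than in pair 3. *Isg15*, a ubiquitin-like modifier, was at 12.8, 10.3 and 12.7 CPM against 48.0, 51.3 and 20.1 CPM. *Oasl2*, of the oligoadenylate synthetase family, was at 8.63, 7.45 and 5.56 CPM against 28.7, 35.5 and 9.01 CPM. *Usp18*, which removes ISG15, was at 8.97, 8.93 and 5.26 CPM against 39.4, 41.9 and 6.95 CPM. In *Isg15* and *Oasl2* the libraries did not overlap, while in *Usp18* metatherian replicate 3 lay below 2 eutherian libraries.

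Of the transcription factors of the pathway, *Stat2* was at 50.7, 51.98 and 27.3 CPM with eutherian CRX and 94.0, 97.3 and 41.2 CPM with metatherian CRX, a log2 difference of 0.80 ± 0.12 (SE), and metatherian replicate 3 lay below 2 eutherian libraries. In contrast, *Irf9* and *Irf7* were higher in pairs 1 and 2 only. *Irf7*, at 7.53, 7.04 and 7.55 CPM, was at 21.1, 26.1 and 4.09 CPM with metatherian CRX. The 6 lower genes of the list, described together after their directions were seen, were *H2-K1* and *H2-D1*, the class I heavy chains, *B2m*, their light chain, *Tap1*, the peptide transporter, *Psmb8*, a proteasome subunit, and the factor *Irf1*. *H2-D1* was at 217.3, 211.5 and 220.2 CPM against 170.1, 176.8 and 101.8 CPM, without overlap. *H2-K1* was at 107.9, 108.7 and 83.2 CPM against 87.5, 86.2 and 39.0 CPM. Both genes differed most in pair 3. In the control libraries *Ifit1* was at 23.0, 21.7 and 139.1 CPM, so that replicate 3 of the control lay above all CRX libraries and replicates 1 and 2 below all of them.

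The interferon-stimulated response element, searched as TTTCNNTTTC on either strand, binds complexes of STAT and IRF factors. It was in a window of 13 of the 25 tested list members with a window, and of 9 of 13 that were higher in all pairs. The share among all 7999 genes was 3.46%. This motif was also chosen after the values had been seen. The 3 members with the largest weakest-pair difference that hold it within the stretch from 150 bases before to 20 after the start follow, with matches, which may overlap, in capitals.
Ifit1: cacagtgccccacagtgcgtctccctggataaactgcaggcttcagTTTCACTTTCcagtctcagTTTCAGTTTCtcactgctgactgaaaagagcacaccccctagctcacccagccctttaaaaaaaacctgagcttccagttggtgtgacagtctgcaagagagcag
Gbp3: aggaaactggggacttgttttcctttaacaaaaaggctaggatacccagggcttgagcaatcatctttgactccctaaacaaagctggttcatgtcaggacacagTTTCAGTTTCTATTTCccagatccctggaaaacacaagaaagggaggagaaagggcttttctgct
Isg15: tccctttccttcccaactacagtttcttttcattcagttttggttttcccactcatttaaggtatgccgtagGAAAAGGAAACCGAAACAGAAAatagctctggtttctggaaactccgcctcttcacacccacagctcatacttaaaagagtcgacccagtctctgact
*Ifit1* (chr19:34640739-34640908, plus strand) has 2 matches and the first is at -104. *Gbp3* (chr3:142559894-142560063, plus strand), an interferon-induced GTPase, has 2 from -45, and *Isg15* (chr4:156200799-156200968, minus strand) 3 from -78, all on the other strand. *Gbp3* was at 3.81, 3.16 and 3.07 CPM with eutherian CRX and at 14.5, 15.04 and 4.88 CPM with metatherian CRX.

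Genes of cholesterol and fatty acid synthesis were mostly higher with metatherian CRX. Cells make cholesterol and fatty acids with enzymes whose genes are switched on by the SREBP factors when sterols are scarce. Of 27 genes 25 were tested, 18 were higher in all 3 pairs (72% against 18.6% of all tested genes) and 0 lower, and 11 were higher without overlap (6.21% of all tested genes). The median log2 difference was 0.36 (1.28-fold), with 0.37, 0.42 and 0.37 in the 3 pairs, and 0.24 without metatherian replicate 1 (no block). edgeR called 0, with 14 higher at an unadjusted p under 0.05 (6.20% of all tested genes), and DESeq2 called 6 higher (1.39%). Without both libraries of replicate 3, edgeR called 16 higher, against 13.5% of all tested genes. It called 0 without both of replicate 1 or of replicate 2, with 2 and 7 higher at an unadjusted p under 0.05.

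*Msmo1*, a sterol methyl oxidase (chromosome 8, 64718145-64733578), was at 70.3, 60.5 and 58.5 CPM with eutherian CRX and at 122.6, 89.2 and 100.3 CPM with metatherian CRX. *Cyp51*, the lanosterol demethylase (chromosome 5, 4080674-4104697), was at 110.2, 95.5 and 66.7 CPM against 166.0, 137.0 and 111.2 CPM. In both genes the lowest metatherian library lay above the highest eutherian library. *Insig1*, which holds SREBP back, and *Stard4*, which carries cholesterol, did not overlap either, with log2 differences of 0.50 ± 0.11 and 0.64 ± 0.12 (SE). The SREBP genes had no single direction. *Srebf2* was at 133.0, 122.1 and 112.1 CPM against 138.4, 154.8 and 81.3 CPM, and *Srebf1* at 69.4, 60.1 and 83.6 CPM against 67.8, 84.7 and 34.6 CPM. *Fasn*, the fatty acid synthase, was higher in pairs 1 and 2 and lower in pair 3.

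**Figure D3:**
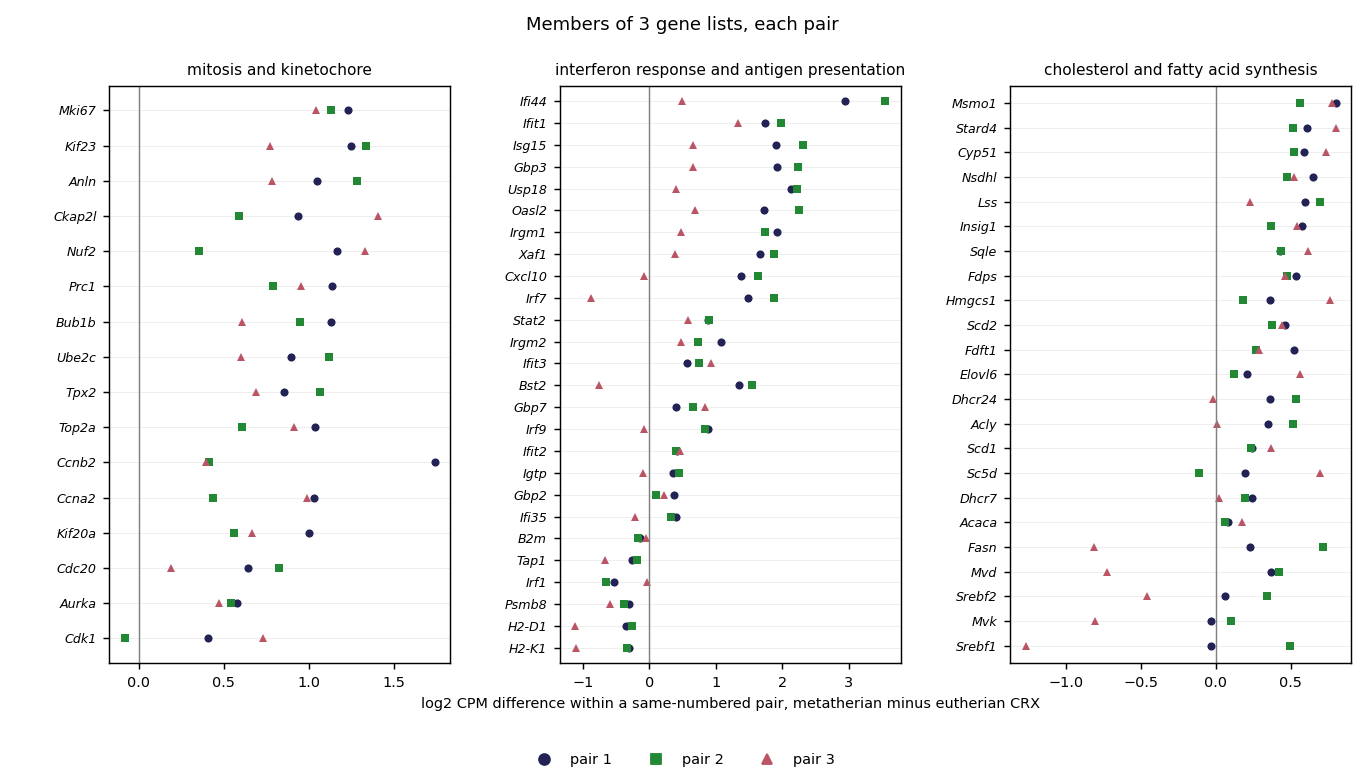
Log2 CPM difference (metatherian minus eutherian CRX) of tested members of 3 gene lists, with 1 symbol for each same-numbered pair. Values to the right of 0 are higher with metatherian CRX. Of 16 plotted mitotic genes 15 lie to the right in every pair, of 23 plotted lipid synthesis genes 16, and of 26 plotted interferon and antigen presentation genes 14, with 6 to the left in every pair.

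Genes of oxidative phosphorylation were slightly lower. Of 72 tested subunits of the respiratory chain and ATP synthase, 23 were lower (31.9% against 13.6% of all tested genes) and 1 higher in all pairs, and 13 were lower without overlap (5.29% of all tested genes). The median was -0.14, or 0.909-fold, with -0.065, -0.14 and -0.16 in the pairs, and -0.088 without metatherian replicate 3 (no block). edgeR called 0, with 3 lower at an unadjusted p under 0.05, near the 2.92% of all tested genes, and DESeq2 called 0. The differences were small beside those of the groups above. *Ndufs6*, a subunit of complex I, was at 18.7 CPM, 22.2 CPM and 17.7 CPM against no more than 17.0 CPM in any metatherian library, and *Ndufb11*, of the same complex, was at 41.3, 42.6 and 31.9 CPM against 33.1, 33.6 and 22.4 CPM. Only *Ndufs6* did not overlap. Of 74 ribosomal protein genes 8 were higher (10.8% against 18.6% of all tested genes) and 15 lower (20.3% against 13.6%), with pair medians near 0 in pairs 1 and 2 and at -0.27 in pair 3. Of the 74, 3 passed the filter through the eutherian libraries only. *Rpl27a* was at 28.6, 27.6 and 28.6 CPM against 38.8, 32.0 and 40.5 CPM. Several short genes of both lists have processed copies elsewhere in the genome.

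Targets of BMP signals were lower in part. BMP ligands activate SMAD factors, which induce the *Id* and *Msx* genes. Of 19 tested genes of the BMP and TGF-beta pathway 6 were lower (31.6% against 13.6% of all tested genes) and 2 higher in all pairs, with a median of -0.16. The median was -0.062 without both libraries of replicate 3 and -0.35 without metatherian replicate 2 (no block). edgeR called 0, while 5 lower members and 1 higher member had unadjusted p-values below 0.05 (2.92% and 6.20% of all tested genes), and DESeq2 called 2 lower and 1 higher (0.383% and 1.39%). The lower genes were the ligand *Bmp4*, the inhibitory factor *Smad6*, the pseudoreceptor *Bambi*, and the targets *Id2*, *Id3* and *Msx1*. *Id3*, an inhibitor of helix-loop-helix factors (chromosome 4, 136143822-136145392), was at 369.0, 397.5 and 194.5 CPM with eutherian CRX and 221.5, 219.1 and 89.8 CPM with metatherian CRX. *Bmp4* was at 232.5, 234.0 and 15.9 CPM against 83.8, 61.9 and 14.6 CPM, so that pair 3 hardly differed. *Smad6* was at 57.6, 49.9 and 23.3 CPM against 30.7, 39.1 and 9.36 CPM. The targets *Id1*, *Id4* and *Msx2* and the ligand *Bmp2* had no single direction, and *Msx2* and *Bmp2* were higher in pairs 1 and 2. *Inhba*, which forms activin, was higher without overlap, at 181.9, 156.9 and 239.8 CPM against 367.1, 382.6 and 304.2 CPM. In the control libraries *Id3* was at 408.7, 400.7 and 260.7 CPM and *Msx1* at 44.0, 39.4 and 14.8 CPM.

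In the Wnt pathway 16 of 24 listed genes were tested. Of these, 5 were lower (31.25% against 13.6% of all tested genes) and 2 higher (12.5% against 18.6%) in all pairs. Of the 16, 3 passed the filter through the eutherian libraries only. The list had pair medians of -0.24, -0.54 and 0.023. edgeR called 0 of the 16, with 4 lower and 1 higher at an unadjusted p under 0.05 (2.92% and 6.20% of all tested genes). DESeq2 called 2 lower and 0 higher (0.383% and 1.39%). *Fzd2*, a receptor, was at 107.7, 108.0 and 43.8 CPM against 65.0, 65.7 and 31.2 CPM. *Axin2*, a feedback target of the pathway, was at 18.9, 18.2 and 4.27 CPM against 6.88, 7.28 and 3.95 CPM. *Wisp1* was higher without overlap, at 98.2, 98.1 and 91.3 CPM against 141.6, 118.0 and 170.4 CPM. *Sfrp2*, a secreted inhibitor, had the largest gap between the pairs of this list, at 44.9, 69.6 and 3.61 CPM against 4.24, 3.19 and 3.69 CPM. It was lower in pairs 1 and 2 and not in pair 3. Members below the filter went both ways. *Lef1* was at 0.557, 1.24 and 8.40 CPM against 3.08, 4.92 and 8.51 CPM, and *Ror1* at 7.98, 8.41 and 2.29 CPM against 4.75, 3.09 and 4.33 CPM.

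Among the growth factor pathways, of 15 tested FGF and IGF genes 5 were higher (33.3% against 18.6% of all tested genes) and 1 lower (6.67% against 13.6%) in all pairs, with a median of 0.37, which was at -0.010 without both libraries of replicate 2 and 0.063 without metatherian replicate 2 alone (no block). *Igfbp7*, an IGF binding protein, was at 148.7, 158.1 and 132.4 CPM against 209.7, 208.1 and 215.9 CPM, without overlap. *Igf2*, a fetal growth factor, was at 3907, 4005 and 1861 CPM against 4923, 5538 and 2311 CPM. *Fgf18* was lower, at 3.77, 4.26 and 7.30 CPM against 2.78, 3.39 and 5.30 CPM.

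Immediate early genes and targets of the kinase ERK showed large differences in 2 pairs and the opposite in the third. Of 24 tested, 5 were higher (20.8%, near the 18.6% of all tested genes) and 0 lower in all pairs, and the pair medians were 0.62, 1.38 and -0.39. *Dusp6*, a phosphatase induced by ERK, was at 15.6, 14.6 and 176.0 CPM with eutherian CRX and at 59.5, 88.5 and 129.8 CPM with metatherian CRX. Eutherian replicate 3 was thus the highest library and replicates 1 and 2 the lowest. The even members were *Dusp1*, at 32.5, 26.0 and 16.2 CPM against 49.6, 45.8 and 26.5 CPM, and *Fos*, at 10.9, 11.2 and 9.42 CPM against 16.5, 18.7 and 11.7 CPM. The libraries of *Fos* did not overlap. Of 21 tested NF-kB targets, cytokines and chemokines, 6 were lower (28.6% against 13.6% of all tested genes) and 1 higher (4.76% against 18.6%) in all pairs, and 1 gene with no single direction, *Bcl3*, passed the filter through the eutherian libraries only. The median was -0.26, with 0.079, -0.25 and -0.25 in the pairs, and it was -0.029 without both libraries of replicate 3 and -0.063 without eutherian replicate 3 alone (no block). *Icam1*, an adhesion receptor, was at 115.0, 132.5 and 79.9 CPM against 70.4, 85.0 and 67.0 CPM. *Ptgs2*, which makes prostaglandins, went the other way without overlap, at 152.1, 136.4 and 384.2 CPM against 446.0, 404.7 and 499.7 CPM.

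Matrix genes went both ways between and within lists. Their counts, and those of the lists after them, are to be set against 18.6% higher and 13.6% lower of all tested genes. Glycoproteins and cross-linking enzymes had pair medians of -0.39, -0.82 and 0.67, with 7 of 30 higher and 1 lower in all pairs. *Fn1*, fibronectin, was at 16950, 14340 and 10830 CPM against 26220, 28530 and 14490 CPM. *Loxl3*, a lysyl oxidase, was at 248.6, 206.9 and 288.2 CPM against 484.9, 465.9 and 383.8 CPM. *Loxl3* did not overlap, and *Fn1* overlapped only through metatherian replicate 3. Of 20 collagen chains 7 were higher (35%) and 1 lower (5%), with a median of 0.15 and pair medians of 0.12, 0.37 and 0.21, but of -0.035 without metatherian replicate 2 (no block). *Col6a1* was at 498.9, 480.0 and 349.6 CPM against 778.6, 777.4 and 434.9 CPM, and *Col11a1* at 608.8, 525.7 and 112.6 CPM against 968.0, 648.3 and 261.9 CPM. *Col1a1*, the main collagen of fibroblasts, was the lower chain, at 6578, 6192 and 1110 CPM against 5347, 4789 and 1054 CPM. None of 14 contractile genes kept 1 direction, with pair medians of -0.34, -0.48 and 0.64. Of 17 matrix proteases and inhibitors 6 were higher (35.3%) and 1 lower (5.88%), with pair medians of 0.12, 0.050 and 0.28, but a median of -0.052 without eutherian replicate 1 (no block). Among the higher genes were *Timp2*, at 5729, 5585 and 4500 CPM against 7300, 7661 and 4894 CPM, and *Mmp19*.

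**Figure D4:**
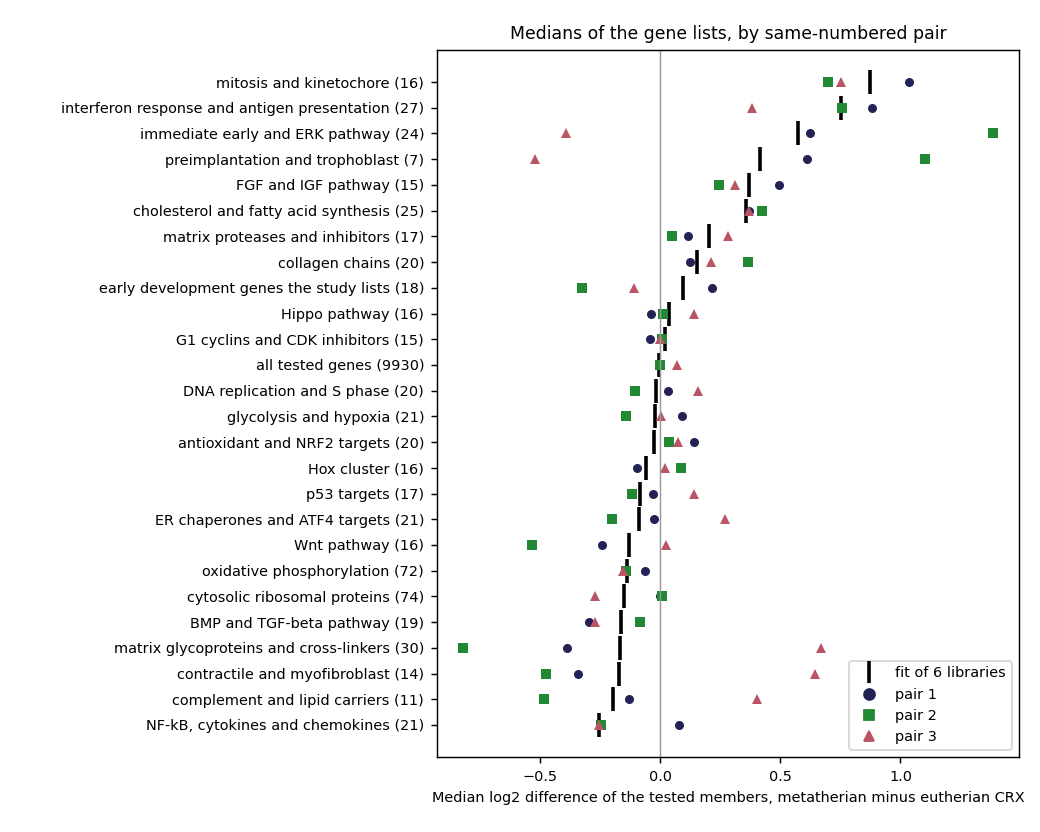
Median log2 difference (metatherian minus eutherian CRX) of the tested members of each gene list with at least 5 of them, from the fit of 6 libraries (bar) and in each same-numbered pair (symbols). The number tested is in brackets. Mitosis (0.70 to 1.03), interferon (0.38 to 0.88) and lipid synthesis (0.37 to 0.42) lie above 0 in every pair, whereas immediate early genes range from -0.39 to 1.38.

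*Hox* genes, which give fibroblasts their positional identity, went both ways. Of 16 tested 6 were higher and 3 lower in all pairs, with a median of -0.059. The higher genes included *Hoxc8*, *Hoxc9* (which passed the filter through the metatherian libraries only) and *Hoxc10*, and the lower ones were *Hoxa10*, *Hoxa13* and *Hoxd10*. *Hoxc10* was at 7.11, 8.06 and 11.03 CPM against 21.0, 19.2 and 14.2 CPM, without overlap. *Hoxa13* was at 16.0, 16.5 and 8.10 CPM against 10.48, 12.7 and 4.79 CPM. The other lists had members in both directions. Antioxidant and NRF2 targets had 5 higher and 3 lower of 20, with *Nqo1*, a quinone reductase, at 73.0, 77.8 and 86.0 CPM against 162.2, 142.7 and 115.1 CPM, and *Gclc*, of glutathione synthesis, at 62.2, 62.4 and 93.7 CPM against 104.2, 128.6 and 113.0 CPM. Neither of these 2 genes overlapped. Targets of p53 had 5 higher and 4 lower of 17, with *Ccng1*, cyclin G1, at 1316, 1357 and 1311 CPM against 1788, 1652 and 1708 CPM, and *Pmaip1*, a trigger of apoptosis, at 115.7, 131.5 and 232.5 CPM against 202.9, 204.3 and 338.1 CPM. Chaperones and ATF4 targets had 3 and 3 of 21, glycolysis and hypoxia 2 higher and 3 lower of 21, complement and lipid carriers 2 and 3 of 11 (3 of the 11, among them the lower gene *Apod*, passed the filter through the eutherian libraries only), and the Hippo pathway 3 and 4 of 16. *Apoe*, a lipid carrier, was lower without overlap, at 7.31, 8.36 and 10.2 CPM against 3.60, 4.78 and 7.04 CPM. In the Hippo pathway *Vgll4*, a partner of the TEAD factors, was at 70.6, 72.3 and 44.1 CPM against 41.6, 42.9 and 36.7 CPM. *Ankrd1* of the same list was higher in all pairs with overlap, at 1.075, 1.65 and 16.0 CPM against 4.72, 5.54 and 21.45 CPM. DESeq2 called 2 of the 16 higher and 0 lower (1.39% and 0.383% of all tested genes).

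The study names 19 genes of early development in connection with these cells, and 18 of them were tested. The list was chosen by the study on these libraries and is no independent evidence of a direction. *Ptgs2* was higher and *Msx1*, *Vgll4*, *Tead3* and *Apod* were lower in all pairs, and the other 13 had no single direction. *Apod* and *Lmod1* passed the filter through the eutherian libraries only. *Fgfr2*, an FGF receptor, was at 321.3, 332.0 and 30.9 CPM with eutherian CRX and 102.4, 72.9 and 46.4 CPM with metatherian CRX. *Bmp2* was at 5.44, 5.26 and 78.2 CPM against 12.5, 20.9 and 38.1 CPM. *Hbegf*, a ligand of the EGF receptor, was at 102.8, 90.1 and 261.1 CPM against 214.7, 274.7 and 234.1 CPM. In 11 of the 13, namely *Fgfr2*, *Bmp2*, *Hbegf*, *Gata3*, *Lmod1*, *Id4*, *Smarca1*, *Msx2*, *Tead4*, *Gpx3* and *Rbpj*, pair 3 had the opposite direction to pairs 1 and 2, though in *Gpx3* and *Rbpj* it was near 0 (-0.065 and -0.066 on the log2 scale). In *Ednrb* and *Serping1* it was pair 2 that stood alone. Of 28 genes of the preimplantation embryo and the trophoblast 7 were tested, and only *Id2* kept 1 direction, at 96.6, 113.6 and 89.9 CPM against 71.6, 75.5 and 84.8 CPM.

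Markers of fibroblasts were present in every library, and 12 of 12 were tested. Their summed level was 19110, 18760 and 8403 CPM with eutherian CRX and 17930, 15750 and 8990 CPM with metatherian CRX, so that replicate 3 was low in both. Of the 12, 3 were higher and 2 lower in all pairs, with a median log2 difference of 0.020. *Dcn* had the lowest fitted difference (-1.96), at 354.0, 439.1 and 160.1 CPM against 64.0, 44.2 and 168.9 CPM. *Pdgfra* and *S100a4* were higher in every pair, *Pdgfra* at 223.9, 236.9 and 373.4 CPM against 295.2, 363.2 and 388.9 CPM. Of 20 macrophage and leukocyte markers 4 were tested, and *Lyz2* was at 12.3, 10.3 and 1.80 CPM against 0.520, 1.71 and 5.05 CPM. The complement genes *C1qa*, *C1qb* and *C1qc* reached at most 1.27 CPM, in eutherian replicate 1. Of 6 endothelial markers *Kdr* was tested, and it was lower in every pair, at 13.9, 10.4 and 16.9 CPM against 7.95, 8.63 and 15.8 CPM, while *Cldn5* was at 0 in all 6 libraries. Of 8 cartilage and bone markers 3 were tested and none kept 1 direction. *Col2a1*, the collagen of cartilage, was at 55.7, 43.6 and 20.8 CPM against 233.0, 220.3 and 17.0 CPM. Of 7 neural and glial markers 3 were tested. *S100b* was higher without overlap, at 2.16, 1.93 and 1.76 CPM against 5.19, 4.57 and 2.73 CPM. *Map2* was at 146, 150.9 and 22.2 CPM against 49.5, 42.6 and 30.4 CPM. The tested epithelial, skeletal muscle and adipocyte markers had no single direction. The part of any of these cells in the differences described was not tested. In these bulk cultures fewer cells of a type and less RNA per cell cannot be told apart.

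The CRX motif TAATCC, searched on both strands, was in a window of 518 of the 7999 tested genes with a promoter window (6.48%). Among genes lower in all pairs it was in 62 of 1114 (5.57%). For genes higher in all pairs a window was found for 1455 of 1848, under 80%, so that the comparison is void. Of the 13 genes higher by at least 2-fold in every pair 12 had a window and 0 held the motif, whereas of the 2 lower genes *Crx* held it and *Msx1* did not. Since the place of *Crx* rests on the reads described above, its match says nothing about a response of its promoter. In the interferon and antigen presentation list 4 of 25 held the motif (16%), among them 3 of the 13 with a window that were higher in all pairs (*Ifit3*, *Irgm1* and *Oasl2*), and in the mitosis list 0 of 13. No match says only that these letters are not in these windows.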

How the data were processed

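Each of the 6 libraries was made from polyadenylated RNA with the TruSeq kit and sequenced from both ends. The authors aligned the reads with STAR to mm10 (GRCm38) and deposited raw counts per gene made with featureCounts, not normalized and not pooled. Whether strand was used and how multiply aligned reads were counted is not given in the sources used here, so that overlapping antisense genes cannot be told apart. The members and gene lists were chosen with earlier results of these data known.

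Of 22068 genes 4075 had no count in the 6 libraries, and 9930 were tested, namely those that passed filterByExpr (14292 genes) with a mean FPKM above 2, computed here from counts and exon lengths, in at least 1 condition. edgeR 4.0.16 in R 4.3.3 gave TMM factors and the quasi-likelihood test with the replicate number as a block, since the study states that samples were prepared in pairs and associated them in its analysis, with Benjamini-Hochberg adjustment over all tested genes. SE is the log2 difference divided by the square root of F. Log2 CPM within pairs used a prior count of 2. The named genes are *Crx*, the 12 in each direction with the largest weakest-pair difference, 2 of each list, and the early development genes of the study. The lists' counts include 3 genes that are not reported singly here. DESeq2 1.42.0, limma 3.58.1 and other scalings, filters, depths and sets of libraries were alternatives. The test was tested on simulated data. A floor of 3 counts covers counting error only. An exact permutation test of 3 against 3 libraries cannot go below p = 0.1 and was not used.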

Additional observations from a re-analysis of the deposited data

How the results depend on the processing

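The number of genes called at an adjusted p under 0.05 was 0 in each direction with edgeR under the other filters and scalings, with thinned counts, with all 9 libraries, with an adjusted p under 0.10 and without the block, and also with limma voom. DESeq2 called 138 higher and 38 lower. With libraries left out the counts ranged from 0 to 1345 higher and from 0 to 997 lower, the highest without both libraries of replicate 3. At the unadjusted threshold 334 genes were higher and 166 lower with no replicate block, and 460 were lower with no filter. With libraries left out there were 57 to 1815 higher and 17 to 1519 lower. In every pair at least 2-fold there were 13 higher and 2 lower genes. With no filter 2354 were lower in all pairs and 996 lower without overlap. With libraries left out 1952 to 3594 genes were higher and 1702 to 3688 lower in all remaining pairs, and 731 to 3181 higher and 630 to 3259 lower without overlap, as fewer libraries must agree. Of 80 named genes 71 kept their direction in all alternatives. Most of them were chosen for 1 direction in all 3 pairs, so this count is largely set by the choice. Apart from *Ankrd1*, those that turned were early development genes with no single direction. *Bmp2* turned to -0.31 with no replicate block. With libraries left out the log2 differences of 9 genes ranged across 0, from -0.83 to 2.16 in *Bmp2*, -0.28 to 2.96 in *Ankrd1*, -0.16 to 1.10 in *Ednrb*, -0.036 to 1.09 in *Gata3*, -1.80 to 0.26 in *Lmod1*, -0.25 to 0.52 in *Msx2*, -0.13 to 0.32 in *Serping1*, -1.07 to 0.0095 in *Smarca1* and -0.23 to 0.71 in *Tead4*. The cause was not tested.

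Deviations from the condition mean correlated by 0.75, -0.0032 and 0.46 in same-numbered libraries, and the sources do not say that the number marks the pairs in which the samples were prepared, so these values do not show that the numbers pair the libraries. The choice of genes in 1 direction in all 3 pairs rests on these numbers. Without the block the smallest adjusted p was 0.180. The medians of the mitosis, interferon, lipid synthesis and oxidative phosphorylation lists kept their sign in all 18 alternatives run on them.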
